A study of Homo sapiens with 6 samples.

Results

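A set of 7 names defines the group of genes described here, the voltage-dependent anion channels (VDAC1, VDAC2 and VDAC3), the phosphate carrier (SLC25A3) and the adenine nucleotide translocases ANT1, ANT2 and ANT3 (SLC25A4, SLC25A5 and SLC25A6). They were chosen by gene symbol and by no cut on a measured value. Earlier results of these data were known when they were chosen. Of the 7 names, 6 were analysed among 17297 genes, and SLC25A6 is not analysed here. The data are RNA-seq read counts of LNCaP, an established cell line from human prostate cancer. One stable line carried the empty pBabe-puromycin vector (pBabe-vector) and the other the wild-type GNA13 cDNA in the same vector (pBabe-Gα13), so a difference between the lines cannot be told apart from a difference between 2 transduced and selected cell populations. Both were seeded at the same number of cells per plate and cultured for 48 h, with 3 biological replicates per line, which are cultures of 1 line each. The question put to these genes is whether the mRNAs of the channels and carriers that pass adenine nucleotides and phosphate across the mitochondrial membranes differed with Gα13 overexpression.

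VDAC proteins are beta-barrel pores of the outer mitochondrial membrane and pass ATP, ADP, phosphate and small metabolites between the cytosol and the intermembrane space. In the inner membrane, the ANT carriers exchange matrix ATP for cytosolic ADP and the phosphate carrier brings in phosphate with a proton, which together feed ATP synthase. VDAC is in common use as a protein marker of mitochondrial mass, VDAC1 docks hexokinase, VDAC2 holds the apoptosis effector BAK, and ANT2 is the translocase typical of proliferating cells while ANT1 is typical of heart and muscle.

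Promoter sequences are shown for the 3 genes whose line difference passed the test once the pairing of cultures was taken into account (SLC25A3, SLC25A5 and VDAC2). They are the 250 bases before the RefSeq start site on GRCh38.p14, written 5′ to 3′ on the strand of the gene, at chr12:98593436-98593685 for SLC25A3, chrX:119468194-119468443 for SLC25A5 and chr10:75209920-75210169 for VDAC2, all on the plus strand. Capitals mark matches on either strand to an NRF1-type site (GCGCANGCG), to a GC box with the letters GGGCGG, to the CCAAT box, to TATAAA as the letters of a box near start sites, or to TGACG, the core of a cyclic AMP response element (CRE). No match overlapped another in these windows.
SLC25A3: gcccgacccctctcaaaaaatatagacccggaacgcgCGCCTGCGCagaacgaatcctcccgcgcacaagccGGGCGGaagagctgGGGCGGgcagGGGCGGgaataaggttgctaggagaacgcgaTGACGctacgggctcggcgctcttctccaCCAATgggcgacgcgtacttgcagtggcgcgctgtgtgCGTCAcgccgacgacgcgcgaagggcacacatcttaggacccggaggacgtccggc
SLC25A5: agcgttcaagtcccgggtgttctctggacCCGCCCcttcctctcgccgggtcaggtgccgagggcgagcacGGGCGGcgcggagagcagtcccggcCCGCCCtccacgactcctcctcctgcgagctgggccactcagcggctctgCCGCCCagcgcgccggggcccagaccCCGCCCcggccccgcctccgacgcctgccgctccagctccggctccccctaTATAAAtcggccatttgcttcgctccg
VDAC2: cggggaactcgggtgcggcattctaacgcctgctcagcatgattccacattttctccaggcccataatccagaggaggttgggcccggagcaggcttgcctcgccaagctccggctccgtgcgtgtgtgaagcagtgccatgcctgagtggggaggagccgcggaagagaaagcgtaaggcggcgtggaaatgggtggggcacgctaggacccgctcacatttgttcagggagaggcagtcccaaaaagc
The SLC25A3 window held 1 NRF1-type match, whose first base lay 213 bases before the start site, 3 GC boxes at 178, 164 and 154 bases, CRE cores at 123 and 56 bases and a CCAAT box at 94 bases. The SLC25A5 window held 5 GC boxes and the letters TATAAA at 27 bases, and the VDAC2 window held none of these letters. Of 27305 promoter windows of the same length, 7.02% held the NRF1-type letters, 42.3% a GC box, 33% CCAAT, 11.1% TATAAA and 21.7% TGACG. These are letter matches, and no binding was measured. The positions hold for the RefSeq start sites. In Gencode 44 the genes start inside these windows, at chr12:98593591 for SLC25A3, chrX:119468422 for SLC25A5 and chr10:75210154 for VDAC2.

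The coding sequences of SLC25A4 and SLC25A5 are compared because their counts are set against each other below. They were identical at 690 of 894 aligned bases (77.2%), and their longest identical run was 14 bases. The most alike stretch of 60 bases, coding bases 64 to 123, is printed with its 6 differing bases in capitals.
SLC25A4: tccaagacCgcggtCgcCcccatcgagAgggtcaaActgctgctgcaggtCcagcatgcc
SLC25A5: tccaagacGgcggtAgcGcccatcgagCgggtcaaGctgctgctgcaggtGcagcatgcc
No stretch of 150 bases, the read length, of the SLC25A4, SLC25A5, SLC25A3, VDAC1 or VDAC3 transcript was found in a transcript of another gene. VDAC2 was the exception: 27.7% of its 150-base windows were identical in the pseudogene VDAC2P5, and how such reads were counted is not given in the sources used here, so the VDAC2 counts are uncertain to that extent. Exons of the antisense RNA SLC25A5-AS1 cover 13.2% of the annotated exon bases of SLC25A5, and whether the counting used strand is not given either.

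The GNA13 counts followed the labels. In CPM (counts-per-million, TMM-normalized, used throughout), GNA13 was at 820, 886 and 747 in the pBabe-Gα13 std library, replicate 2 and replicate 3, against 76.7, 69.4 and 65.4 in pBabe-vector replicates 1, 2 and 3, an 11.6-fold difference (95% interval 9.50 to 14.2, adjusted p = 9.1e-05, edgeR quasi-likelihood test with Benjamini-Hochberg adjustment). Library totals were 33002160 to 40628970 counts, and each of the 6 genes held 2075 to 21146 counts per library. All 10 luminal markers of LNCaP listed, among them KLK3, were present with means of 180 to 2954 CPM. Of 14 markers of basal, stromal, endothelial, immune and neuroendocrine cells, 9 were analysed. Their levels summed to 44.8 to 62.4 CPM over the pBabe-Gα13 libraries and 30.04 to 56.8 CPM over those of pBabe-vector. With the pairs of cultures as a block, as explained below, 4 of these 9 were called higher and 2 lower in pBabe-Gα13, against 19.7% of all genes called. Those higher were KRT5 (log2 fold change 2.52), COL3A1 (1.26), KRT14 (1.12) and VWF (0.67), and those lower ACTA2 (−1.44) and SYP (−0.57). Of the 10 luminal markers, 4 were called higher and 0 lower with the block. Those called higher were KLK2 (log2 fold change 0.93), KRT8 (0.33), KRT18 (0.25) and KLK3 (0.21). KRT8 and KRT18 lie on chromosome 12. With each chromosome centred on its median, as explained below, they were at 0.04 and −0.04 and not called. In that fit 3 of the 10 luminal markers were called higher and 0 lower, where 13.9% of all genes were called. The part of such a difference between the lines in the results below was not tested.

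The 6 mRNAs were all expressed, and the 95% intervals of their fold differences between the lines ran from 0.722 at the lowest end (SLC25A5) to 1.35 at the highest (SLC25A3). Because the RNA came from whole cultures, a change in every cell and a change in the share of some cells cannot be told apart. In the test with the line as its only term, 0 of 6 genes were called at an adjusted p under 0.05, and 0 of 6 had an unadjusted p under 0.05 (edgeR). Over all genes, 24 (0.139%) were called in this test and 1463 (8.46%) had an unadjusted p under 0.05. The counts of replicates with the same tag or number in both lines (std, 2 and 3) moved together, so the same test was also made with the pair as a block. It called 3 of 6 genes, SLC25A3 as higher and VDAC2 and SLC25A5 as lower in pBabe-Gα13, where it called 19.7% of all genes, 9.32% as higher and 10.4% as lower. The difference had the same sign in all 3 pairs for 4 of 6 genes, beside 48% of all genes. The median log2 fold change was −0.07 over the 6 genes and −0.01 over the genes of at least 1 CPM.

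**Figure D1:**
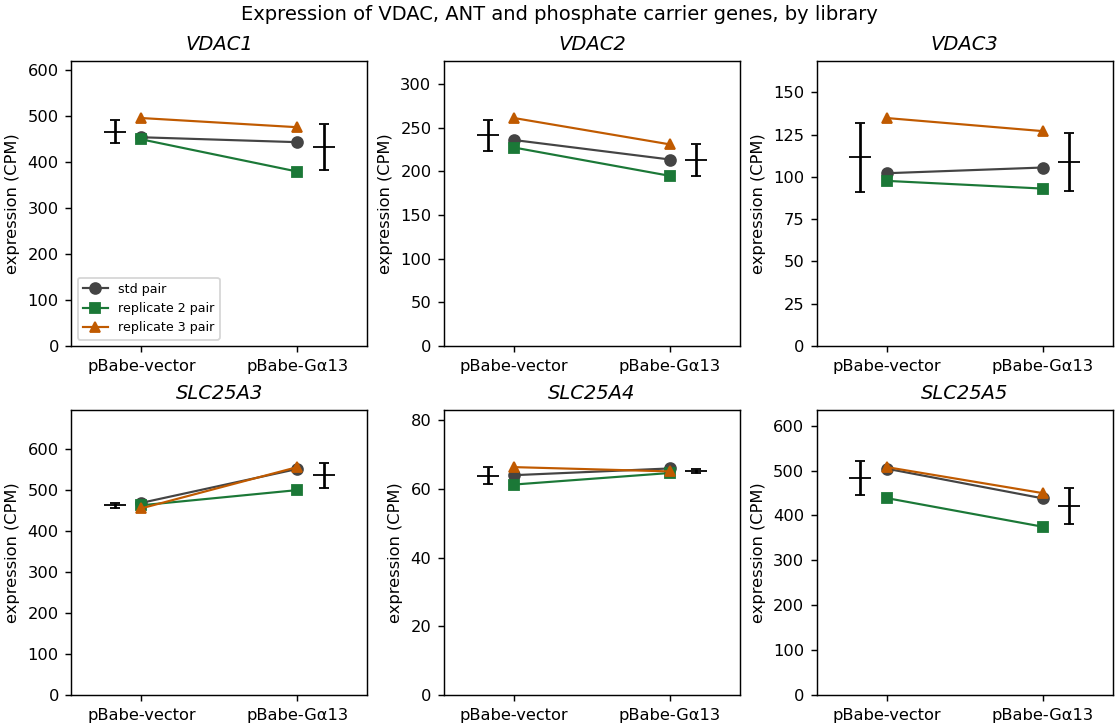
Expression in CPM (y axis, from 0) of the 6 genes in pBabe-vector and pBabe-Gα13, where each line joins the libraries of a pair and the black bars give mean ± SD of 3 libraries. SLC25A3 was above every pBabe-vector library in all pBabe-Gα13 libraries, VDAC2 and SLC25A5 sloped down in all 3 pairs, and the pairs lay apart for VDAC3. Of all genes, 48% had the same sign in all 3 pairs.

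VDAC1 is the main pore of the outer membrane. It was at 443, 379 and 475 CPM in the std library, replicate 2 and replicate 3 of pBabe-Gα13, and at 453, 449 and 495 CPM in pBabe-vector replicates 1, 2 and 3. The groups overlapped, with replicate 2 of pBabe-Gα13 lowest of all and replicate 3 of pBabe-vector highest. The mean was 432 ± 49.0 CPM (SD, n = 3) against 466 ± 25.5 CPM, a log2 fold change of −0.11 (SE 0.12, 95% interval −0.38 to 0.16, adjusted p = 0.920 in edgeR without block, and 0.141 with it). Each pair was lower in pBabe-Gα13, but the log2 differences were −0.03 and −0.06 in the std and replicate 3 pairs and −0.24 in the replicate 2 pair. Without the replicate 2 pair the log2 fold change with the block was −0.05 (adjusted p = 0.665, edgeR).

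VDAC2, the isoform that binds BAK, was at 213, 195 and 231 CPM in the pBabe-Gα13 std library and replicates 2 and 3. In pBabe-vector replicates 1, 2 and 3 it was at 236, 227 and 261 CPM. Only replicate 3 of pBabe-Gα13 reached into the range of pBabe-vector. The log2 fold change was −0.18 (SE 0.11, 95% interval −0.43 to 0.07), a fold of 0.883, with an adjusted p of 0.768 without and 0.0108 with the block (edgeR). The pair differences were close to each other at −0.14, −0.22 and −0.18 for std, 2 and 3. The call with the block was lost when the replicate 2 pair (adjusted p = 0.0525) or the replicate 3 pair (adjusted p = 0.1002) was left out. Without block, its log2 fold change was −0.12 without pBabe-Gα13 replicate 2 or pBabe-vector replicate 3.

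VDAC3, the third pore, was the gene of the group in which the pair mattered most. It was at 106, 93.1 and 127 CPM in the pBabe-Gα13 std library and replicates 2 and 3, and at 102, 97.6 and 135 CPM in pBabe-vector replicates 1, 2 and 3. Both replicate 3 libraries stood above the other 4, and the groups overlapped over almost their whole range. The log2 fold change was −0.04 (SE 0.16, 95% interval −0.42 to 0.34, adjusted p = 1 without and 0.713 with the block, edgeR), positive in the std pair (0.05) and negative in the pairs 2 (−0.07) and 3 (−0.09). The sign also turned when pBabe-vector replicate 3 or pBabe-Gα13 replicate 2 was left out.

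SLC25A3, the mitochondrial phosphate carrier, was the only one of the 6 genes whose groups did not overlap. It was at 551, 499 and 555 CPM in the pBabe-Gα13 std library and replicates 2 and 3, and at 468, 462 and 455 CPM in pBabe-vector replicates 1, 2 and 3. Every pBabe-Gα13 library was above every pBabe-vector library, as for 7.3% of all genes. The pBabe-vector libraries lay close together (SD 6.68 CPM) and those of pBabe-Gα13 further apart (SD 31.1 CPM), with replicate 2 the lowest of the 3. The log2 fold change was 0.21 (SE 0.10, 95% interval −0.01 to 0.43), a fold of 1.16, with an adjusted p of 0.611 without and 0.00333 with the block (edgeR). The exact permutation test gave p = 0.1, the smallest value that 3 against 3 libraries allow. The blocked call was lost without the replicate 3 pair (adjusted p = 0.0619).

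The difference of SLC25A3 was below the median of its chromosome in each of the 3 pairs. SLC25A3 lies on chromosome 12, where the median log2 fold change of 622 genes of at least 1 CPM was 0.29, the highest of chromosomes 1 to 22 and X. The chromosome median was 0.29, 0.28 and 0.31 in the std, replicate 2 and replicate 3 pairs, against 0.23, 0.11 and 0.29 for SLC25A3 itself. After each chromosome was centred on its own median, the log2 fold change of SLC25A3 with the block turned to −0.079 (95% interval −0.18 to 0.02, adjusted p = 0.320, edgeR). VDAC2 on chromosome 10 moved from −0.18 to −0.14 (adjusted p = 0.0601) and SLC25A5 on chromosome X from −0.20 to −0.16 (adjusted p = 0.0254). Thus 1 of 6 genes was called with chromosomes centred, where 13.9% of all genes were. Leaving out any 1 pair from this fit left 0 of 6 genes called. Whether the lines differ in the copy number of a chromosome was not measured.

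**Figure D2:**
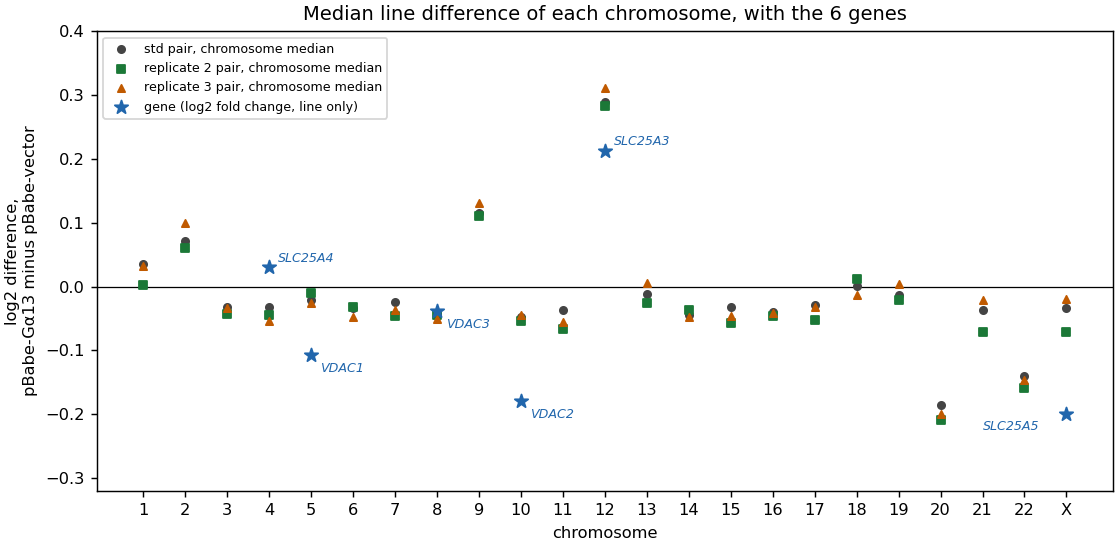
Median log2 difference between the lines (y axis) of the genes of each chromosome (x axis), 1 point per pair, with the log2 fold change of the 6 genes as stars. Chromosome 12 stood highest at 0.28 to 0.31 in the 3 pairs with SLC25A3 below it, and the stars of VDAC2 and SLC25A5 lay below the medians of their chromosomes.

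SLC25A4, or ANT1, was the least abundant of the 6 mRNAs, and the one whose highest and lowest libraries lay closest. It was at 66.0, 64.6 and 65.1 CPM in the pBabe-Gα13 std library and replicates 2 and 3, and at 64.0, 61.3 and 66.3 CPM in pBabe-vector replicates 1, 2 and 3. All 3 pBabe-Gα13 libraries lay within the range of pBabe-vector. The log2 fold change was 0.03 (SE 0.08, 95% interval −0.16 to 0.22, adjusted p = 0.998 without and 0.749 with the block, edgeR).

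SLC25A5, or ANT2, was at 438, 375 and 450 CPM in the pBabe-Gα13 std library and replicates 2 and 3. In pBabe-vector it was at 504, 439 and 508 CPM in replicates 1, 2 and 3. Replicate 2 was the lowest library in both lines, and the highest pBabe-Gα13 library was just above the lowest of pBabe-vector. The log2 fold change was −0.20 (SE 0.12, 95% interval −0.47 to 0.07), a fold of 0.871, with an adjusted p of 0.760 without and 0.00374 with the block (edgeR). The pair differences were the most even of the group at −0.20, −0.23 and −0.17. SLC25A5 was called with the block whichever pair was left out (adjusted p 0.00629 to 0.0302). Without the single library pBabe-Gα13 replicate 2, and without block, its log2 fold change was −0.12.

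**Figure D3:**
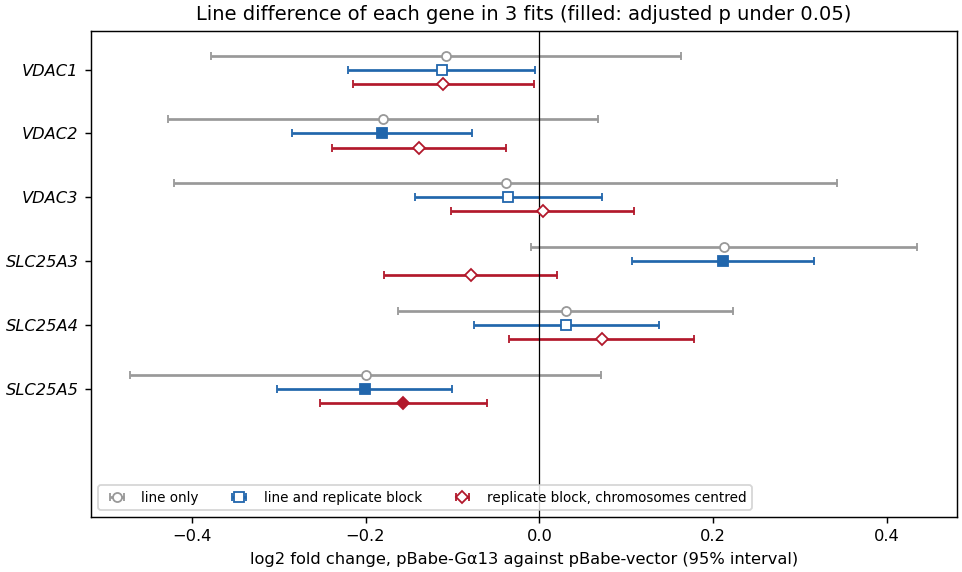
Log2 fold change (x axis) of each gene in pBabe-Gα13 against pBabe-vector with its 95% interval from 3 edgeR fits, where filled symbols have an adjusted p under 0.05. The block narrowed the intervals, and centring the chromosomes moved SLC25A3 from 0.21 to −0.079 while SLC25A5 remained called at −0.16.

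Of the 6 genes, 4 differed between pairs of cultures whatever the line. The term for the pair passed the test for VDAC3 (adjusted p = 3e-06), SLC25A5 (0.00306), VDAC1 (0.0125) and VDAC2 (0.0131), and not for SLC25A3 (0.524) or SLC25A4 (0.699), with 47.4% of all genes called on this term (edgeR). For the 4 genes, the replicate 3 pair was highest and the replicate 2 pair lowest. The spread of pair means was 0.46 on the log2 scale for VDAC3, 0.24 for SLC25A5, 0.23 for VDAC1 and 0.22 for VDAC2, in each case at least as large as the difference between the lines. What differed between the pairs is not stated in the labels.

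Levels of the 3 pores and ANT2 were positively correlated over the 6 libraries. Pearson's r of log2 CPM was 0.929 for VDAC1 and VDAC2, 0.925 for VDAC2 and SLC25A5, 0.868 for VDAC1 and SLC25A5, 0.824 for VDAC1 and VDAC3, 0.762 for VDAC2 and VDAC3 and 0.61 for VDAC3 and SLC25A5. VDAC3 and SLC25A4 had 0.588, while SLC25A3 had values of −0.454 with VDAC2 and −0.388 with SLC25A5. These values describe 6 libraries that share their line, pair and scaling. Among 9866 genes of at least 10 CPM, those most like VDAC3 over the libraries were TK1, thymidine kinase of the S phase (r = 0.9995), and SLBP, the histone mRNA binding protein (r = 0.9991). Those most like SLC25A3 were CKAP4 (r = 0.9946) and ARPC3 (r = 0.9941), which both lie on chromosome 12 and had log2 fold changes of 0.30 and 0.29. The nearest to SLC25A5 were UTP14A, also on chromosome X (r = 0.9954), and SEH1L, of the nuclear pore (r = 0.9953). VDAC1 was nearest to ZNF778 (r = 0.9954) and UQCRQ, a subunit of complex III (r = 0.9946), VDAC2 to DGKZ (r = 0.9981) and AZIN1 (r = 0.9947), and SLC25A4 to ZNF646 (r = 0.9767) and EFL1 (r = 0.9704). Each of these values was picked as the highest among 9866 genes over only 6 libraries, so it is high by selection. A shared function of the genes was not tested.

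Per kilobase of transcript, VDAC1 and SLC25A5 were the most abundant of the 6 mRNAs and SLC25A4 the least. With coding length, the levels were 529 CPM per kb for VDAC1 (446 to 583 over the 6 libraries), 506 for SLC25A5 (419 to 568), 460 for SLC25A3 (420 to 513), 258 for VDAC2 (221 to 296), 130 for VDAC3 (110 to 159) and 72.2 for SLC25A4 (68.5 to 74.2). The ranges of VDAC1, SLC25A5 and SLC25A3 overlapped and those of the other 3 genes did not overlap any neighbour. With the length of the canonical transcript or of all annotated exons, SLC25A5 was first (346 and 291 CPM per kb) and VDAC1 second (244 and 147 CPM per kb). SLC25A3 then stood behind VDAC2 (83.3 and 56.1 CPM per kb), as its canonical transcript is 5984 bases and its annotated exons 8896 bases long. Which of its transcripts these cells express was not measured. The order VDAC1, VDAC2, VDAC3 held with each length.

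Shares within a family do not depend on library scaling. The permutation tests of shares and summed levels below leave out the pairing, so their p-values also hold the spread between pairs. Of the counts of the 3 VDAC genes, VDAC2 took 28.0%, 29.2% and 27.7% in the pBabe-Gα13 std library and replicates 2 and 3 and 29.8%, 29.4% and 29.3% in pBabe-vector replicates 1, 2 and 3. The groups did not overlap, but the highest pBabe-Gα13 library was within 0.1 percentage points of the lowest pBabe-vector library. The mean was 28.3% ± 0.79 against 29.5% ± 0.27 (SD, n = 3, exact two-sided permutation p = 0.1, adjusted p = 0.3 over 6 such comparisons), at the smallest p the design allows. VDAC1 took 57.3% ± 0.69 against 57.0% ± 1.253 (exact p = 0.8) and VDAC3 14.4% ± 0.78 against 13.6% ± 1.37 (exact p = 0.4, n = 3 each), higher in 2 and in 3 of 3 pairs. The summed level of the VDAC genes was 754 ± 83.5 CPM in pBabe-Gα13 against 819 ± 63.2 CPM in pBabe-vector, lower in 3 of 3 pairs (exact p = 0.4, n = 3). That difference of −64.8 CPM rested much on single libraries, at −21.2 CPM without pBabe-Gα13 replicate 2, −28.6 CPM without pBabe-vector replicate 3 and −104 CPM without pBabe-Gα13 replicate 3.

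SLC25A5 made up 86.9%, 85.3% and 87.4% of the SLC25A4 and SLC25A5 counts in the pBabe-Gα13 std library and replicates 2 and 3, and 88.7%, 87.7% and 88.4% in pBabe-vector replicates 1, 2 and 3. The share was lower in each pBabe-Gα13 library (exact two-sided permutation p = 0.1, adjusted p = 0.3, n = 3). Per kilobase of annotated exon, the mean share was 95.2% in pBabe-Gα13 against 95.9% in pBabe-vector. The difference was then −0.69 percentage points, where it was −1.78 for the counts. The summed level of both genes was 486 ± 40.8 CPM against 547 ± 41.2 CPM (SD, n = 3, exact p = 0.3), and their difference of −61.2 CPM was −37.8 CPM without pBabe-Gα13 replicate 2. The phosphate carrier and ANT2 differed in opposite directions, and there were 1.26, 1.33 and 1.23 SLC25A3 counts per SLC25A5 count in the pBabe-Gα13 std library and replicates 2 and 3, against 0.929, 1.05 and 0.896 in pBabe-vector replicates 1, 2 and 3. This ratio was chosen after its values were seen and is given without a test, and it carries the shift of chromosome 12.

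**Figure D4:**
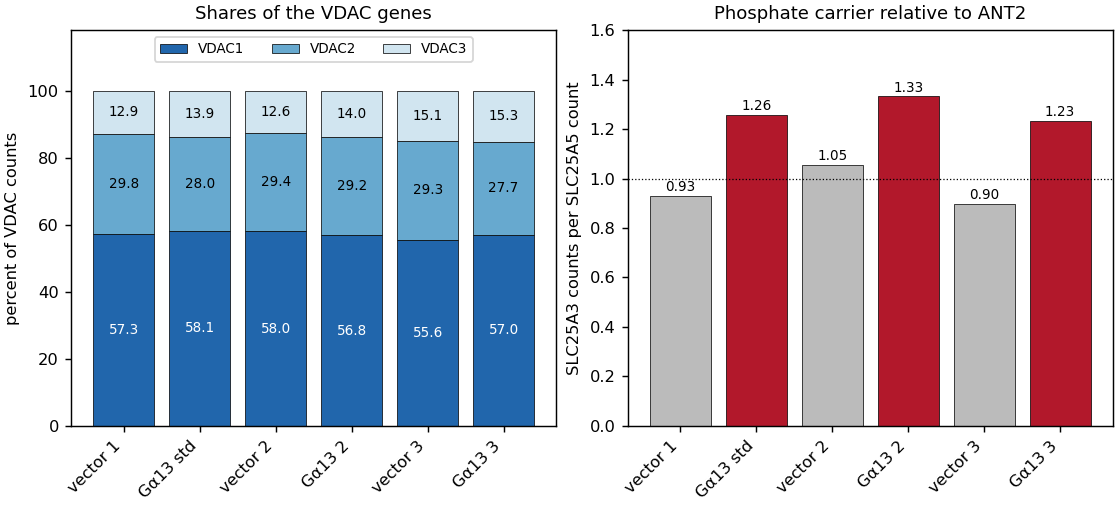
Left, percent of the VDAC counts taken by each VDAC gene in each library (stacked bars), with VDAC2 at 27.7% to 29.2% for pBabe-Gα13 and 29.3% to 29.8% for pBabe-vector. Right, SLC25A3 counts per SLC25A5 count in the same libraries, at 1.23 to 1.33 for pBabe-Gα13 (red) and 0.896 to 1.05 for pBabe-vector (grey), with a dotted line at 1.

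Related genes were read in 6 lists, in the same fits. Without the block, 0 genes of any of these lists were called by edgeR. An unadjusted p under 0.05 was reached by 8.46% of all genes. It was reached by 1 of 43 other SLC25 carriers, 3 of 18 ATP synthase genes and 1 of 19 VDAC and ANT partners. It was also reached by 2 of 9 genes listed for calcium uptake, 0 of 12 nucleotide and creatine kinases and 0 of 9 mass markers. The counts with the block follow, to be read beside the 9.32% of all genes called higher and 10.4% called lower. Those with the block and chromosomes centred are to be read beside 13.9% of all 17297 genes called, 1113 higher and 1293 lower.

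Among the other SLC25 carriers, 1 of 43 was called higher and 6 lower with the block, and the median log2 fold change was −0.02. With chromosomes centred, 2 were called higher and 4 lower. The smallest p belonged to SLC25A48 (2.80 ± 1.15 CPM against 6.28 ± 0.93 CPM, log2 fold change −1.17), SLC25A26, the carrier of S-adenosylmethionine (−0.30), and SLC25A24, an ATP-Mg/phosphate carrier (−0.33). All 3 were called lower with the block, and also with chromosomes centred. Of the most abundant, the citrate carrier SLC25A1 was called lower with the block (188 ± 24.5 CPM against 220 ± 37.0 CPM), and its log2 fold change was −0.10 (adjusted p = 0.295, edgeR) with chromosomes centred. MTCH2 and SLC25A39 were not called (log2 fold changes −0.07 and −0.02).

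Of the 18 ATP synthase genes, whose product uses the ADP and phosphate that these carriers import, 2 were called higher and 7 lower with the block, at a median log2 fold change of −0.10. Both that were higher lie on chromosome 12. ATP5B, the catalytic beta subunit, was at 1477 ± 106 CPM against 1230 ± 48.4 CPM (log2 fold change 0.26), and ATP5G2, of the c ring, at 245 ± 20.5 CPM against 196 ± 18.2 CPM (0.33). Like SLC25A3, neither was called with chromosomes centred (log2 fold changes −0.03 and 0.04). With chromosomes centred, 0 of the 18 were called higher and 3 lower, beside 13.9% of all genes called in either direction. ATP5E, the epsilon subunit, on chromosome 20 with its median of −0.21, had a log2 fold change of −0.41 (176 ± 7.11 CPM against 234 ± 21.4 CPM). With chromosomes centred it was at −0.21 and still called (adjusted p = 0.006 with the block, edgeR). ATP5A1 and ATP5F1, next in abundance, were not called (−0.12 and −0.06).

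Of the 19 partners of VDAC and ANT, 4 were called higher and 3 lower with the block (median log2 fold change 0.02), and 3 higher and 1 lower with chromosomes centred. BCL2L1, which encodes the VDAC-binding survival protein BCL-XL, was at 57.0 ± 4.25 CPM against 71.0 ± 4.199 CPM (log2 fold change −0.32) and lies on chromosome 20. With chromosomes centred it was at −0.12 and not called. HK2, a hexokinase that docks on VDAC1, was at 120 ± 17.2 CPM against 99.8 ± 4.004 CPM (0.27), and BCL2 at 11.9 ± 1.53 CPM against 9.27 ± 1.19 CPM (0.36), both called higher with the block also with chromosomes centred. TUBB, a tubulin, was called lower with the block at −0.23 but ranged widely within each line (1092 ± 500 CPM against 1245 ± 457 CPM). HSPA9 and MCL1 were not called (0.02 and −0.07).

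Of 9 genes listed for mitochondrial calcium uptake, which draws on calcium passed by VDAC, 1 was called higher and 2 lower with the block. The 1 called higher, SLC8B1, is the sodium/calcium exchanger of the inner membrane, which carries calcium out of the matrix and not in. It was at 20.5 ± 3.71 CPM against 13.2 ± 1.88 CPM (log2 fold change 0.64, chromosome 12), and was called at 0.35 with chromosomes centred. SMDT1 and the channel gene MCU were called lower with the block (−0.26 and −0.21) and neither was called with chromosomes centred. LETM1 and MICU2 were not called (−0.03 and −0.015). None of 12 nucleotide and creatine kinases was called with or without the block, and CKB and AK4, among the most abundant, had log2 fold changes of −0.11 and 0.05. NME4, CKM and AK5, with the smallest p of that list, were all below 3 CPM.

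Of 9 markers of mitochondrial mass, VDAC1 among them, 1 was called higher and 2 lower with the block, and the median log2 fold change was −0.05. CS, citrate synthase, was at 437 ± 54.5 CPM against 368 ± 38.7 CPM (0.25, chromosome 12) and was not called with chromosomes centred (−0.05). TFAM, which packages mitochondrial DNA, was at 139 ± 13.6 CPM against 162 ± 9.89 CPM (−0.22) and was called lower with the block in both forms. TOMM22 was called lower with the block (−0.22) and not with chromosomes centred (−0.10), and the chaperonin HSPD1 was not called (0.05).

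**Figure D5:**
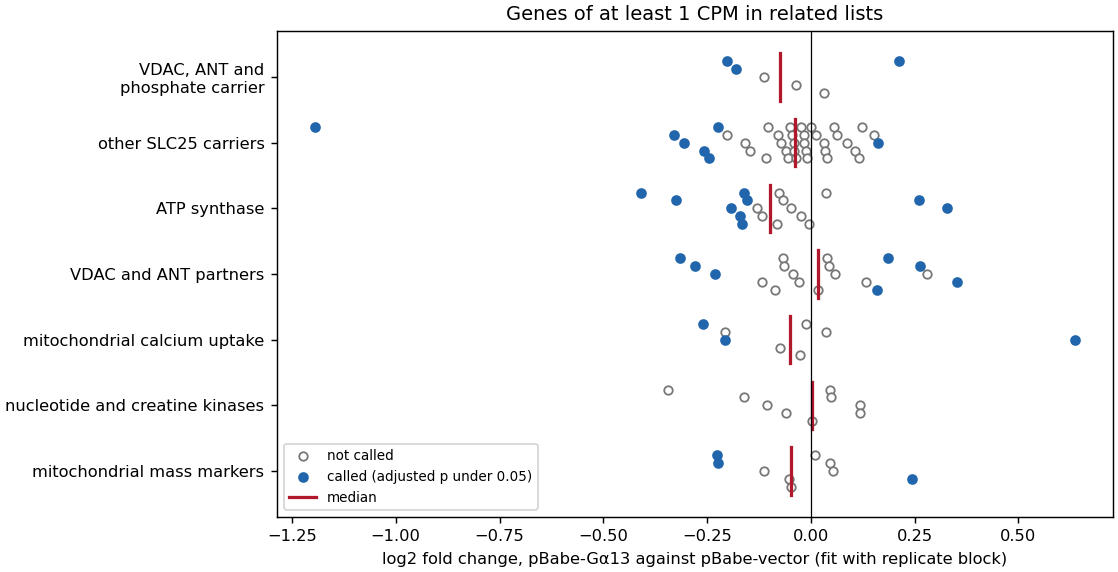
Log2 fold change with the block (x axis) of every gene of at least 1 CPM in the 6 related lists and of the 6 channels and carriers (rows), filled where the adjusted p was under 0.05, with the median of each list in red. Called genes lay on both sides of 0 in 6 of the 7 rows, and the kinases had none.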

How the data were processed

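Per the methods and the submitters' processing notes, the authors assessed reads of 150 nucleotides with FastQC 0.11.7. They aligned the reads with STAR to Gencode 38 and counted them with featureCounts. The deposited gene symbols include older ones such as ATP5E, so which annotation was used for counting is uncertain. The deposited table is named as CPM and the methods describe CPM on a log2 scale, but its values are whole numbers with different totals per library, so they were treated as raw read counts for gene symbols, and 6 columns were used and 0 left out. The heading of the pBabe-Gα13 std library carries the number 2, as does that of replicate 2, while the pBabe-vector library tagged std carries the number 1, so the std pair rests on the tag. TMM followed the study's methods, which state limma and mention no block. Counts were tested without block with edgeR 4.0.16 (R 4.3.3, glmQLFit, legacy form, glmQLFTest) over all 17297 genes with Benjamini-Hochberg adjustment and a threshold of 0.05. The alternatives were the replicate block, limma-trend (limma 3.58.1) and DESeq2 1.42.0, beside other scalings, filters, left-out libraries, correction for GC content and length, and centring each chromosome on its median.

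Libraries of the same tag or number were treated as pairs. Deviations from the group means correlated at 0.659 (std), 0.807 (2) and 0.888 (3) within pairs. Between pairs they correlated at −0.736 to 0.125 (12778 genes, which are not independent replicates). Such deviations cancel out within each line, so the lower values between pairs are partly built in. P-values without the block rest on the spread between cultures within a line, and those with it on the spread of the differences within pairs. Both come from cultures of 1 line each, so neither covers a spread between separately made lines. Log2 CPM used a prior count of 2, and errors are SD over 3 libraries. Shares were tested with SciPy 1.17.1. In Gencode 44, 13773 symbols matched as current and 706 as older ones, and 2818 without a match were not centred. Promoter sequences came from RefSeq (GRCh38.p14). The fits were tested on simulated data with 200 changed genes.

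The genes, lists and tests were chosen with earlier results of these data known. Named by rule were the 6 genes, GNA13, in each related list the 3 genes with the smallest p without block and the 3 most abundant, and the 2 genes most like each of the 6. Some genes that the rule names are not reported here.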

Additional observations from a re-analysis of the deposited data

How the results depend on the processing

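Without block, the number of genes called was 24 in the analysis reported, 20 to 24 with other scalings, the filter on low counts, the newer quasi-likelihood method or centred chromosomes, 271 with DESeq2 and 5 with limma-trend. It was 2 to 15 when 1 library was left out, with none of the 6 channel and carrier genes called in any of these. With the replicate block, which follows the pairs of cultures, 3407 genes and 3 of the 6 were called. Without the std, 2 and 3 pair this was 3266, 2550 and 2250 genes and 3, 2 and 1 of the 6. DESeq2 with the block called 2000 genes and 3 of the 6, limma-trend with the block 433 genes and 0 of the 6, the newer quasi-likelihood method with the block 3129 and 3, and the block with GC content and length correction 3242 and 3. The block with centred chromosomes called 2406 and 1, and, with 1 pair left out (chosen after seeing the data), 1579, 1723 and 1250 and 0. Over 12 settings with the block, SLC25A5 was called in 8, SLC25A3 in 6, VDAC2 in 5 and VDAC1, VDAC3 and SLC25A4 in 0.

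The sign of SLC25A3 reversed in the settings with centred chromosomes, to −0.078 without and −0.079 with the block and to −0.088, −0.039 and −0.10 without the std, 2 and 3 pair. That of VDAC3 reversed to 0.12 without pBabe-vector replicate 3, to 0.06 without pBabe-Gα13 replicate 2, to 0.0011 and 0.0039 with centred chromosomes without and with the block, and to 0.012 and 0.034 without the 2 and 3 pair, and ranged from −0.16 to 0.12 when 1 library was left out. The difference in the VDAC1 share reversed to −0.33 and −0.028 percentage points without pBabe-vector replicate 3 and the pBabe-Gα13 std library, in a range of −0.33 to 0.894 over the libraries left out. The other 4 genes and 5 family measures kept their sign in each setting run. The cause was not tested. With 3 cultures of 1 line on each side, the differences of the channel and carrier genes were under 1.2-fold. In the unblocked test the interval of each of these genes included no difference. With the block, the log2 intervals excluded it for SLC25A3 (0.107 to 0.315), SLC25A5 (−0.302 to −0.100) and VDAC2 (−0.284 to −0.077). That of VDAC1 (−0.220 to −0.005) also excluded it, but VDAC1 was not called after adjustment. The mRNA level does not give the protein level or mitochondrial mass.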
